A study of Homo sapiens with 4 samples.

Results

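The transcripts of the mitochondrial genome were measured in RNA pulled down with KIF5A, one of the heavy chains of kinesin-1, a motor that moves cargo along microtubules. The members are all genes whose symbol starts with MT-, which gave 37 of the 60719 genes listed: 13 mRNAs, 2 ribosomal RNAs (rRNAs) and 22 transfer RNAs (tRNAs). SK-N-AS, an established line of human neuroblastoma cells, was transfected with a construct for V5-tagged wild-type KIF5A (V5-WT) or for the mutant named d27 in the labels (V5-d27), and the tagged protein was precipitated with antibody-coated magnetic beads about a day later. Both groups are therefore transiently transfected cells that carry their own KIF5A beside the construct, and each group has 2 precipitates, numbered 1 and 2. Nothing in the labels says whether the precipitates came from separate cultures, so the spread behind each p-value may be technical. No input or mock precipitate is used here, so no value measures binding above background.

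The mitochondrial genome is a small circle transcribed from both strands into long precursor RNAs. The heavy-strand precursor, which runs along the plus strand of the reference, carries both rRNAs, all mRNAs but MT-ND6 and most tRNAs. The light-strand precursor yields MT-ND6 and the remaining tRNAs. The tRNAs lie between the other genes and are cut out of the precursors, which releases the mRNAs. Most of these mRNAs have little or no untranslated sequence. All are translated by mitochondrial ribosomes inside the organelle, and encode core subunits of respiratory complexes I, III and IV and of ATP synthase, complex V. Kinesin-1 is known for carrying mitochondria.

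The 2 strands leave opposite base compositions in their mRNAs. G made up 6.28% to 16.2% of bases in the 12 heavy-strand mRNAs and C 29.5% to 36.0%, whereas MT-ND6 held 35.6% G and 7.05% C. MT-ND5 (chrM:12337-14148, plus strand, GRCh38) and MT-ND6 (chrM:14149-14673, minus strand) end next to each other on opposite strands, and their last 60 bases, given as DNA 5′ to 3′ with every G in capitals, show this contrast, which sets the light-strand mRNA apart from its heavy-strand neighbour.
MT-ND5 (chrM:14089-14148): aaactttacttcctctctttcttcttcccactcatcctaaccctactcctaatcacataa
MT-ND6 (chrM:14149-14208): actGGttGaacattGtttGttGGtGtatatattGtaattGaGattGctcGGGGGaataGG
The MT-ND5 stretch has 0 G and 23 C, and the MT-ND6 stretch has 19 G and 4 C. Both genes are single exons in the annotation, as are all 37.

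Some mitochondrial genes overlap, which bears on their counts, because HTSeq in its default mode leaves out a read that touches more than 1 gene. MT-ATP8 (chrM:8366-8572) and MT-ATP6 (chrM:8527-9207), which encode complex V subunits from 1 mRNA, share 46 bases, or 22.2% of MT-ATP8. MT-ND4L (chrM:10470-10766) and MT-ND4 (chrM:10760-12137), the complex I subunits that also share an mRNA, have 7 bases in common. The shared stretches follow, with the start codon of the downstream gene in capitals, since reads that touch them would then count for neither gene.
MT-ATP8/MT-ATP6 (chrM:8527-8572): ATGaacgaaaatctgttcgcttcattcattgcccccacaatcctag
MT-ND4L/MT-ND4 (chrM:10760-10766): ATGctaa
Counts of these 4 genes, and of tRNAs, which are shorter than the inserts that the labels' protocol aimed for, are therefore uncertain.

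KIF5A itself, which the construct adds to, had 83658 and 166138 CPM in WT and 108245 and 109266 CPM in d27 (CPM is the count scaled to the TMM-adjusted library size). Gene counts totalled between 8142869 and 18335151 per library, with 19369 to 26305 genes detected. HTSeq's summary entries, which name no gene, took between 25.9% (d27 replicate 1) and 47.6% (WT replicate 1) of entries and were lower in both d27 libraries, so the groups differ in this share. Of the neuroblastoma markers, 8 of 8 mesenchymal and 7 of 8 adrenergic genes had counts in every library. FOSL1, a mesenchymal marker, rose from 166 and 143 CPM in WT to 1917 and 1749 CPM in d27 (log2 3.57 ± 0.30 SE, edgeR adjusted p = 0.00384). FN1, another, went the other way, at 489 and 1059 CPM in WT and 164 and 338 CPM in d27 (log2 -1.63 ± 0.46). It did not pass (edgeR adjusted p = 0.0590), nor did any other neuroblastoma marker tested. The part of these differences in the mitochondrial values was not tested. TH, which encodes the rate-limiting enzyme of catecholamine synthesis, was at 0 in WT replicate 2 and d27 replicate 1. The blood markers HBB and CD3E and the epithelial marker EPCAM were at 0 throughout, and CD68, another blood marker, had 10 counts in d27 replicate 1, 2 in d27 replicate 2 and none with WT. The 4 blood markers summed to 190.0 and 162 CPM in WT and 101 and 80.0 CPM in d27, nearly all of it PTPRC.

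The mitochondrial genome gave a smaller share of the RNA recovered with d27 than with WT, and the precipitates of each group differed widely. The 37 genes held 2.67% (2.66% to 2.68%) of gene counts in WT replicate 1, 1.34% (1.34% to 1.35%) in WT replicate 2, 0.522% (0.519% to 0.525%) in d27 replicate 1 and 1.15% (1.15% to 1.16%) in d27 replicate 2 (exact binomial 95% intervals, which cover counting error only). Both d27 libraries lay under both WT libraries, and the mean difference was -1.29 on the log2 scale. An exact permutation test over the libraries (two-sided, n = 2 per group) gave p = 0.33, the smallest that 2 against 2 libraries allow. In such bulk precipitates, fewer mitochondria beside the other RNA and less RNA in each mitochondrion cannot be told apart. Nor can binding and background, since no input or mock precipitate is used here.

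The mRNAs and the rRNAs did not follow each other from library to library. The 13 mRNAs together held 1.17% and 0.694% of the counts in the WT libraries and 0.315% and 0.385% in the d27 libraries, so the groups were apart. The 2 rRNAs took 1.48% and 0.644% in WT and 0.204% and 0.763% in d27, so d27 replicate 2 lay above WT replicate 2 and the groups overlapped. The tRNAs took 0.0165% and 0.00590% in WT and 0.00264% and 0.00647% in d27, also with overlap. The protocol depleted ribosomal RNA, naming the mitochondrial 12S rRNA among its targets, so the rRNA values are those left after depletion.

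Of the 13 mRNAs, 9 fell in d27, none rose and 4 did not pass the test. The test was edgeR's quasi-likelihood test over 14909 genes, with Benjamini-Hochberg adjusted p-values and a threshold of 0.05. Over all genes tested, 3.70% were called lower and 8.00% higher in d27, and among genes at least as abundant as the scarcest mitochondrial mRNA 7.51% were called lower. The median log2 fold change of the 13 was -1.40, against 0.00 (-0.00043) over all genes tested. Both d27 libraries lay under both WT libraries for all 13, a separation that 29.8% of tested genes showed in that direction and 61.2% in either. An unadjusted p under 0.05 was reached by 12 of the 13, all but MT-ATP8, against 13.6% of tested genes that reached it with a lower value in d27. Without d27 replicate 1, 1 of the 13, MT-ND6, was called, and the median became -1.16. Over all genes tested the calls in that direction went from 551 to 71 in the same alternative. With all HTSeq entries as library size, an alternative chosen after seeing the data that moved the median of all genes to 0.42, 2 were called, MT-ND6 and MT-ND5. Nuclear noncoding RNAs also had lower values in d27 (MALAT1, NEAT1 and KCNQ1OT1 summed to 8642 and 12174 CPM in WT and 4568 and 4225 CPM in d27). None of those 3 passed the test. Their log2 fold changes were -1.20 ± 0.34 for MALAT1, -1.24 ± 0.34 for NEAT1 and -2.28 ± 0.79 for KCNQ1OT1 (edgeR adjusted p = 0.0602, 0.0528 and 0.107). WT replicate 2 was the highest library for them, and WT replicate 1 for every mitochondrial mRNA but MT-ATP6. The part of these nuclear RNAs in the result was not tested. PTPRC, a marker of blood cells, fell as well, at 190.0 and 162 CPM in WT and 101 and 79.8 CPM in d27 (log2 -0.96 ± 0.24, edgeR adjusted p = 0.0433), and its part was not tested, while HBB and CD3E were at 0 in every library.

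**Figure D1:**
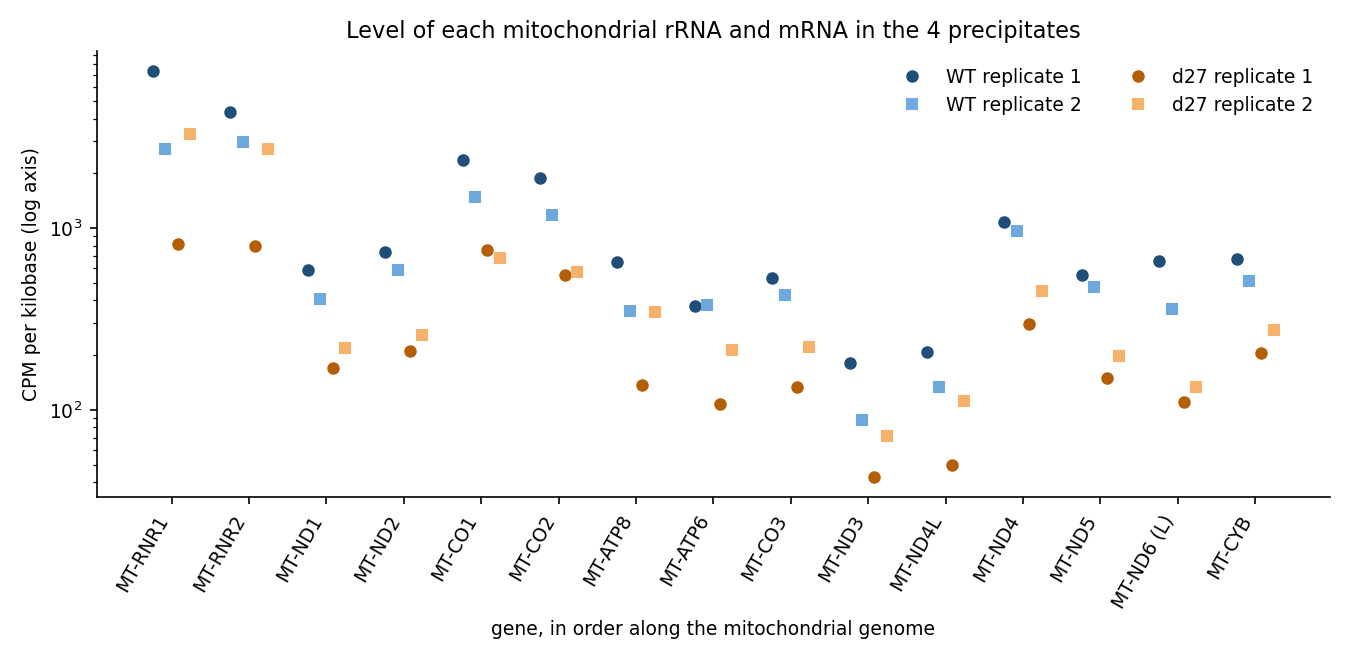
Level of each mitochondrial rRNA and mRNA in CPM per kilobase of gene (log axis) in the 4 precipitates, in genome order, with 1 point per library and (L) for the light strand. Both d27 points lie under both WT points for the 13 mRNAs and for MT-RNR2, and for MT-RNR1 d27 replicate 2 lies above WT replicate 2.

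Complex I takes 7 of the 13 mRNAs, of which 5 fell. MT-ND6, a membrane subunit encoded on the light strand, was at 346 and 187 CPM in WT replicates 1 and 2 and 58.1 and 69.8 CPM in d27 replicates 1 and 2, with every d27 value under every WT value. It fell 4.17-fold (log2 -2.06 ± 0.33 SE, edgeR adjusted p = 0.0141), the lowest fold change of the mRNAs, and remained called in all 13 alternatives tried. MT-ND5, a proton-pumping subunit and its heavy-strand neighbour, was at 1002 and 861 CPM in WT and 270.4 and 357 CPM in d27. The WT values of MT-ND5 lay close together, and its log2 fold change was -1.57 ± 0.28 (edgeR adjusted p = 0.0180).

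MT-ND2 and MT-ND4 encode further proton-pumping subunits of complex I, and MT-ND1 the one that helps form the quinone-binding site. MT-ND2 (chrM:4470-5511) was at 772 and 615 CPM in WT and 219.7 and 270.3 CPM in d27 (log2 fold change -1.50 ± 0.27, edgeR adjusted p = 0.0182). MT-ND4 was at 1499 and 1327 CPM in WT and 411 and 624 CPM in d27 (log2 -1.45 ± 0.31), and MT-ND1 (chrM:3307-4262) at 565 and 389.5 CPM in WT and 163 and 209.6 CPM in d27 (log2 -1.36 ± 0.29). In all 3 genes d27 replicate 1 was the lowest library and WT replicate 1 the highest. MT-ND3 (chrM:10059-10404), at 62.5 and 30.6 CPM in WT and 14.8 and 24.9 CPM in d27, and MT-ND4L, at 61.4 and 39.5 CPM in WT and 14.8 and 33.3 CPM in d27, did not pass (log2 -1.23 ± 0.41 and -1.08 ± 0.42, edgeR adjusted p = 0.0908 and 0.129). For MT-ND4L the groups were nearly in contact, at 39.5 CPM in WT replicate 2 and 33.3 CPM in d27 replicate 2.

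All 3 mRNAs of complex IV, cytochrome c oxidase, fell. MT-CO1 (chrM:5904-7445), which encodes its catalytic subunit, was the most abundant mitochondrial mRNA per kilobase, at 3637 and 2286 CPM in WT and 1176 and 1063 CPM in d27. Its d27 values were close to each other while its WT values were far apart, and its log2 fold change was -1.40 ± 0.33 (edgeR adjusted p = 0.0359). MT-CO2 (chrM:7586-8269), the subunit that receives electrons from cytochrome c, was at 1291 and 809 CPM in WT and 379 and 391 CPM in d27 (log2 -1.45 ± 0.31), and MT-CO3 (chrM:9207-9990) at 417 and 338 CPM in WT and 104 and 174 CPM in d27 (log2 -1.44 ± 0.31). The MT-CO1 call was lost without either d27 library (edgeR adjusted p = 0.155 without replicate 1 and 0.115 without replicate 2) and with library totals in place of TMM (0.0546), with a range of 3.28e-05 to 0.155 over the alternatives, while without d27 replicate 1 its fold change was -1.46.

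MT-CYB (chrM:14747-15887), cytochrome b and the only mitochondrially encoded subunit of complex III, fell from 678 ± 130.2 to 274 ± 57.3 CPM (SD, n = 2 each; log2 -1.31 ± 0.29, edgeR adjusted p = 0.0300), with no overlap between groups. Neither mRNA of complex V passed. MT-ATP6, the channel subunit, was at 255 and 258 CPM in WT and 73.6 and 145 CPM in d27 (log2 -1.23 ± 0.34, edgeR adjusted p = 0.0525), close to the threshold, and was called in 7 of 13 alternatives, DESeq2 among them. MT-ATP8, a small membrane subunit, was at 135 and 72.1 CPM in WT and 28.4 and 71.4 CPM in d27 (log2 -1.06 ± 0.46, adjusted p = 0.167). Its lowest WT and highest d27 values were all but equal.

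**Figure D2:**
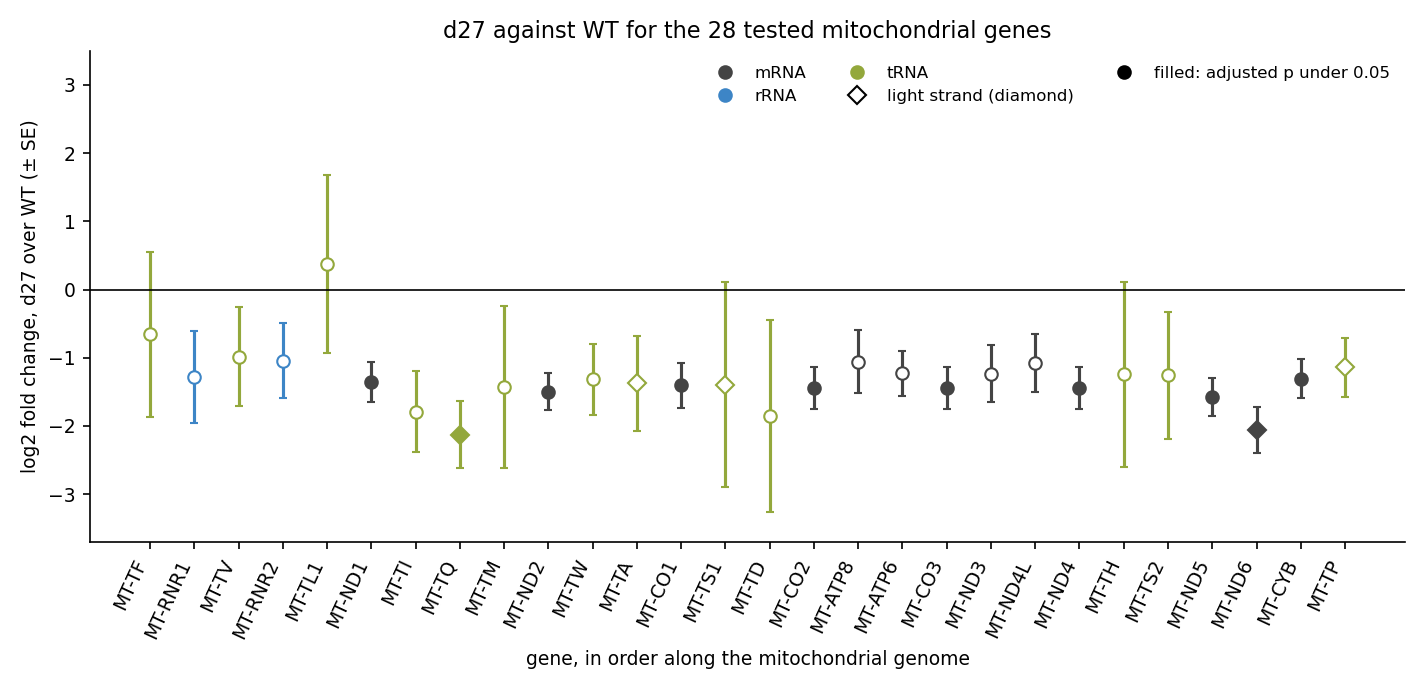
Log2 fold change of d27 over WT (± SE) for the 28 tested mitochondrial genes in genome order, by RNA class, with diamonds for the light strand and filled symbols for an edgeR adjusted p under 0.05. All lie under 0 except MT-TL1, the 10 filled symbols are 9 mRNAs and MT-TQ, and the widest error bars belong to tRNAs with few counts.

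MT-ND6, the light-strand mRNA, was lower in d27 also relative to the heavy-strand mRNAs of the same library, a comparison that does not depend on library scaling. For every 100 counts on the 12 heavy-strand mRNAs MT-ND6 had 3.30 in WT replicate 1 and 2.46 in WT replicate 2, against 1.88 in d27 replicate 1 and 1.90 in d27 replicate 2. The d27 libraries were nearly equal, and the WT libraries lay above them and apart from each other. The difference was -0.59 on the log2 scale, or 1.51-fold lower in d27, with p = 0.33 by an exact two-sided permutation test (n = 2 per group), the smallest it can give. It was -0.38 without WT replicate 1 and -0.81 without WT replicate 2, so its size depends on which WT library is used.

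Set against each of the 12 heavy-strand mRNAs in turn, MT-ND6 was lower in d27 by 1.34-fold (against MT-ND5) to 1.82-fold (against MT-ATP8). The groups did not overlap for 9 of the 12. All 12 ratios share the MT-ND6 counts, so they are not separate results. In level, 29.8% of all genes tested had both d27 libraries under both WT libraries. That share is not one of ratios within libraries, for which none was computed. Against MT-ND5 there were 0.345 and 0.218 counts of MT-ND6 per count in WT and 0.215 and 0.195 in d27, so WT replicate 2 was close to d27 and WT replicate 1 stood apart. Relative to MT-ND6 the light-strand tRNAs were higher in both d27 libraries, with 0.141 and 0.134 counts per MT-ND6 count in WT and 0.210 and 0.173 in d27. Light-strand against heavy-strand tRNAs showed no order by group, at 0.468 and 0.611 in WT and 0.862 and 0.237 in d27. The strand difference among the mRNAs rests on a single light-strand gene.

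**Figure D3:**
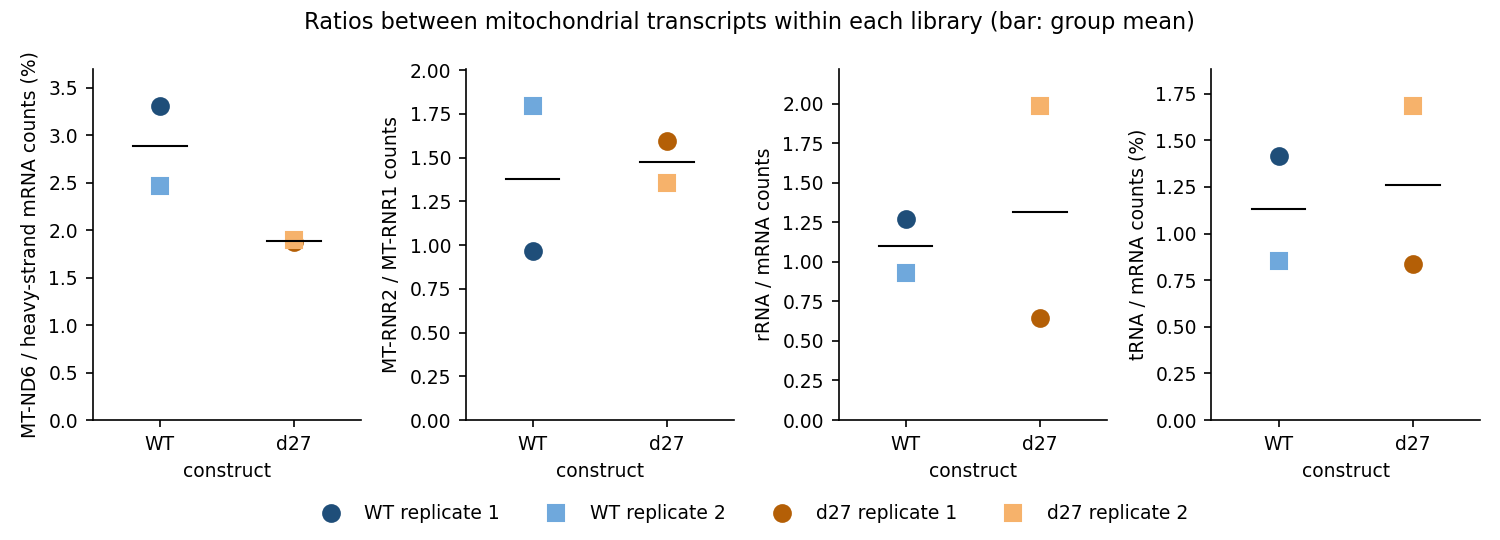
Ratios of counts within each library: MT-ND6 to the 12 heavy-strand mRNAs (%), MT-RNR2 to MT-RNR1, rRNA to mRNA, and tRNA to mRNA (%), with 1 point per library, bars for group means and axes from 0. In the MT-ND6 panel both d27 points lie under both WT points, and in the other panels the groups overlap or interleave.

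Within the mRNA pool, no share of a heavy-strand gene separated the constructs. MT-CO1 made up 33.6% and 29.3% in WT and 37.4% and 28.4% in d27 of the 13 mRNAs' counts, MT-ND4 13.9% and 17.0% in WT and 13.1% and 16.7% in d27, and MT-CO2 11.9% and 10.4% in WT and 12.0% and 10.4% in d27. None of the 12 heavy-strand mRNAs had groups apart in this share, whereas MT-ND6 did, at 3.20% and 2.40% in WT and 1.85% and 1.86% in d27. In level, groups were apart in either direction for 61.2% of all genes tested. That share was not computed for parts of a pool. The 13 shares are parts of the same whole, so they are not separate results. Levels per kilobase over the 12 heavy-strand genes correlated between all pairs of libraries (Pearson r 0.95 to 0.99 on the log2 scale, n = 12 genes). Spearman rho for the same pairs ran from 0.80 to 0.98. The genes share the precursor and are not independent. In WT the order per kilobase ran from MT-CO1 (1920.4 ± 619 CPM per kilobase, SD, n = 2) through MT-CO2 (1535 ± 498) and MT-ND4 (1025 ± 87.9) down to MT-ND4L (169.9 ± 52.3) and MT-ND3 (134 ± 65.2). MT-CO1 lay above MT-CO2 in every library, and MT-ND4L above MT-ND3, though both gaps were smaller than the SD between the WT libraries. The middle of the order, from MT-ND2 (665 ± 107) to MT-ATP6 (377 ± 3.51), held 8 genes, with MT-CYB, MT-ND5, MT-ND6, MT-ATP8, MT-ND1 and MT-CO3 between them. Most neighbours there differed by less than that SD, which does not compare them within each library. In d27 the extremes were the same, from MT-CO1 (726 ± 51.9) to MT-ND3 (57.4 ± 20.7), and MT-ND6 (122 ± 15.8) came just above MT-ND4L and MT-ND3.

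The smallest differences were those of the 2 shortest heavy-strand mRNAs, MT-ATP8 and MT-ND4L, whose counts are uncertain because each overlaps a neighbour. Across the 12, the log2 fold change went down with gene length (Pearson r = -0.80, Spearman rho = -0.78, given as a description), and it showed little relation to position along the precursor (Pearson r = 0.11, Spearman rho = 0.01). Length also went with the difference between the d27 replicates (Pearson r = 0.68, Spearman rho = 0.71 for log2 of replicate 1 over replicate 2), and in the opposite direction with that between the WT replicates (Pearson r = -0.53, Spearman rho = -0.48). The fold change and these replicate differences use the same libraries, so their trends with length are not separate results. MT-ATP8 (207 bases), MT-ND4L (297 bases) and MT-ND3 (346 bases) had d27 values of -1.33, -1.17 and -0.75 for log2 of replicate 1 over replicate 2, lower in replicate 1, while MT-CO1 (1542 bases) was at 0.15 and MT-CO2 (684 bases) at -0.05. MT-ND6, at 525 bases, did not follow the length order of the fold changes. Per the labels' protocol, fragmentation times depended on RNA integrity and are not given, and their part in these differences was not tested.

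**Figure D4:**
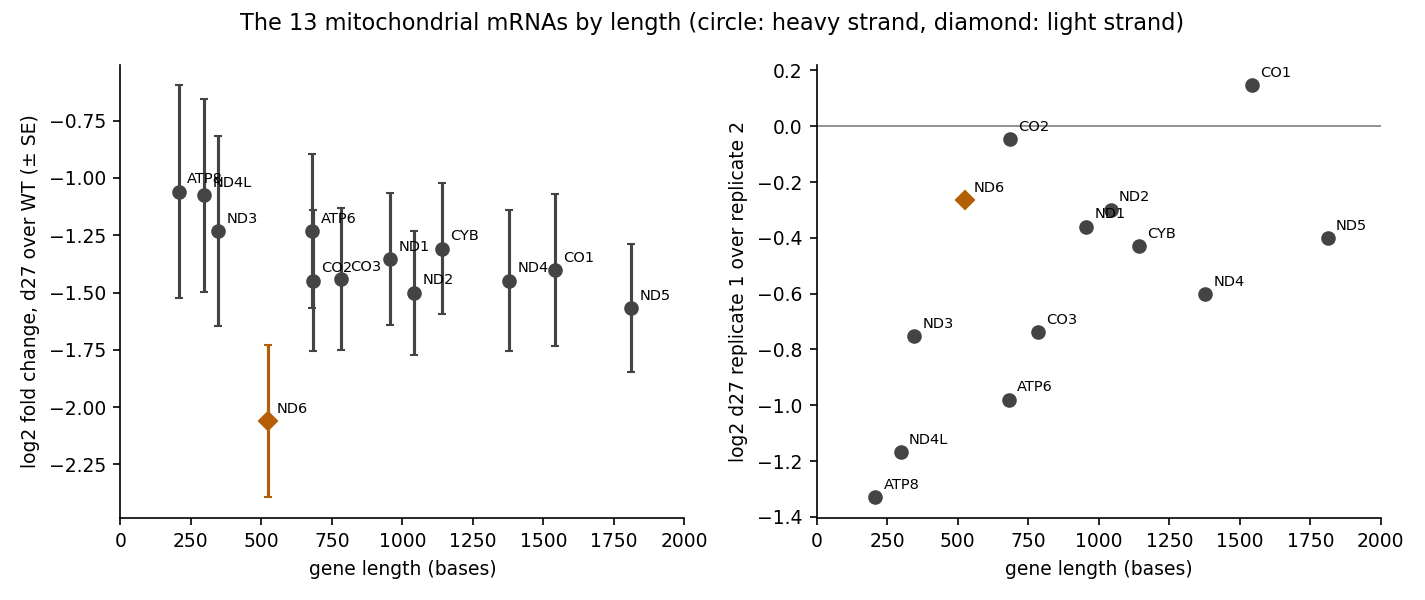
The 13 mitochondrial mRNAs by gene length: log2 fold change of d27 over WT (± SE, left) and log2 of d27 replicate 1 over replicate 2 (right), with circles for heavy-strand genes and a diamond for MT-ND6. Short heavy-strand genes such as MT-ATP8 and MT-ND4L have the smallest drops and the largest gap between d27 replicates, and MT-ND6 lies under the others on the left.

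Neither mitochondrial rRNA passed the test, and neither had an unadjusted p under 0.05 in edgeR (30.7% of all genes tested did), while DESeq2 called 0 of 2 with 1 at an unadjusted p under 0.05. MT-RNR1, the 12S rRNA of the small mitochondrial ribosomal subunit (chrM:648-1601), was at 6990.3 and 2589 CPM in WT replicates 1 and 2 and 783 and 3152 CPM in d27 replicates 1 and 2. The replicates were far apart in both groups, and the groups overlapped (log2 -1.28 ± 0.68, edgeR adjusted p = 0.241). MT-RNR2, the 16S rRNA of the large subunit (chrM:1671-3229), was at 6768 and 4643 CPM in WT and 1251 and 4279 CPM in d27 (log2 -1.05 ± 0.55, adjusted p = 0.238). Here the groups did not overlap, though WT replicate 2 and d27 replicate 2 were close. Without d27 replicate 2 both rRNAs were called lower, with log2 fold changes of -2.58 and -2.16, and without d27 replicate 1 they were at -0.59 and -0.40, so the d27 library used sets the size of their difference.

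Relative to the mRNAs, the rRNAs were at 1.27 and 0.927 counts per mRNA count in WT and 0.646 and 1.98 in d27, so the d27 replicates bracketed both WT values (log2 difference 0.06, exact permutation p = 1, two-sided, n = 2 per group). The MT-RNR2 to MT-RNR1 ratio was 0.968 and 1.79 in WT and 1.60 and 1.36 in d27, again with the d27 values between those of WT (log2 difference 0.16, exact permutation p = 1). No difference between constructs beyond the spread of the precipitates could be seen in either ratio.

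Of the 22 tRNA genes, 13 passed the filter on low counts and 9 did not. Among the 13, MT-TQ fell, none rose and 12 did not pass, where 3.70% of all genes tested fell and 8.00% rose. The total over the 22 genes was 1345 and 638 counts in WT and 484 and 678 in d27, which is 0.837% to 1.68% of the mRNA counts. The tRNA to mRNA ratio showed no order by group: 1.42% and 0.850% in WT and 0.837% and 1.68% in d27 (exact permutation p = 1, two-sided, n = 2 per group). For 6 of the 13, both d27 libraries lay under both WT libraries, as they did for 29.8% of all genes tested. Reads of mature tRNAs and of uncut precursors are not told apart in these counts.

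MT-TQ, the glutamine tRNA of the light strand, and MT-TI, the isoleucine tRNA of the heavy strand, are neighbours that share 3 bases on opposite strands. Their sequences are shown with the shared bases in capitals, followed by MT-TV, the valine tRNA that lies between the rRNAs and had the most counts.
MT-TQ (chrM:4329-4400, minus strand): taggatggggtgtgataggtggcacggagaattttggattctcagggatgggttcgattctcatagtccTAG
MT-TI (chrM:4263-4331, plus strand): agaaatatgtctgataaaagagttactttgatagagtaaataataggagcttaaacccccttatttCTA
MT-TV (chrM:1602-1670, plus strand): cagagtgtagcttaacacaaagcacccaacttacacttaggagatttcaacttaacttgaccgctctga
MT-TQ had 130 and 82 counts in the WT libraries and 59 and 22 in the d27 libraries, or 14.8 and 8.52 CPM in WT and 3.21 and 2.05 CPM in d27, with no overlap between groups (log2 fold change -2.13 ± 0.49, edgeR adjusted p = 0.0344). The call was lost without either d27 library (adjusted p = 0.0604 and 0.0911, with a range of 0.00235 to 0.0911 over the alternatives). MT-TI had 187 and 58 counts in the WT libraries and 68 and 45 in the d27 libraries and did not pass (log2 -1.79 ± 0.60, adjusted p = 0.0884). Its fold change depends on WT replicate 1, at -0.57 without it and -2.41 without WT replicate 2.

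MT-TV had 365 and 154 counts in the WT libraries and 92 and 262 in the d27 libraries, so d27 replicate 2 lay above WT replicate 2 in CPM, as it did for MT-RNR1 (log2 -0.99 ± 0.73, edgeR adjusted p = 0.398). Per 100 counts of MT-RNR1, its upstream neighbour, MT-TV had 0.594 and 0.618 counts in WT and 0.639 and 0.773 in d27. That ratio had a range of 1.30-fold over the 4 libraries, against 1.78-fold for MT-TV to MT-RNR2 and 4.08-fold for MT-TV to the mRNAs, given as a description of 4 libraries.

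The other tested tRNAs had few counts. MT-TP, the light-strand proline tRNA, had 99 and 115 counts in the WT libraries and 70 and 73 in the d27 libraries with groups that did not overlap (log2 -1.14 ± 0.43, edgeR adjusted p = 0.118). MT-TS2, a serine tRNA, had 119 and 72 counts in the WT libraries and 12 and 90 in the d27 libraries (log2 -1.25 ± 0.93), with d27 replicate 1 far under the other 3 libraries. MT-TS1, the other serine tRNA, lies just downstream of MT-CO1 on the opposite strand and had 68 and 1 counts in the WT libraries and 49 and 2 in the d27 libraries, high in both libraries numbered 1 and near 0 in both numbered 2. MT-TW (tryptophan, log2 -1.31 ± 0.52), MT-TA (alanine, -1.37 ± 0.69), MT-TM (methionine, -1.43 ± 1.19), MT-TH (histidine, -1.24 ± 1.35), MT-TF (phenylalanine, -0.66 ± 1.21), MT-TL1 (leucine, 0.37 ± 1.30) and MT-TD (-1.86 ± 1.41) did not pass either. By strand, 0 of 9 tested heavy-strand and 1 of 4 tested light-strand tRNAs fell, a split that rests on MT-TQ alone.

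Among the 9 tRNAs under the filter, MT-TK (lysine) and MT-TN (asparagine) had no counts in any library. Where nothing was counted, up to 3 counts remain possible, or 0.163 to 0.341 CPM depending on the library. MT-TL2 had 2 counts in all. MT-TC, MT-TY, MT-TG, MT-TR, MT-TE and MT-TT had between 0 and 33 counts per library, with WT replicate 1 the highest library for all 6.

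**Figure D5:**
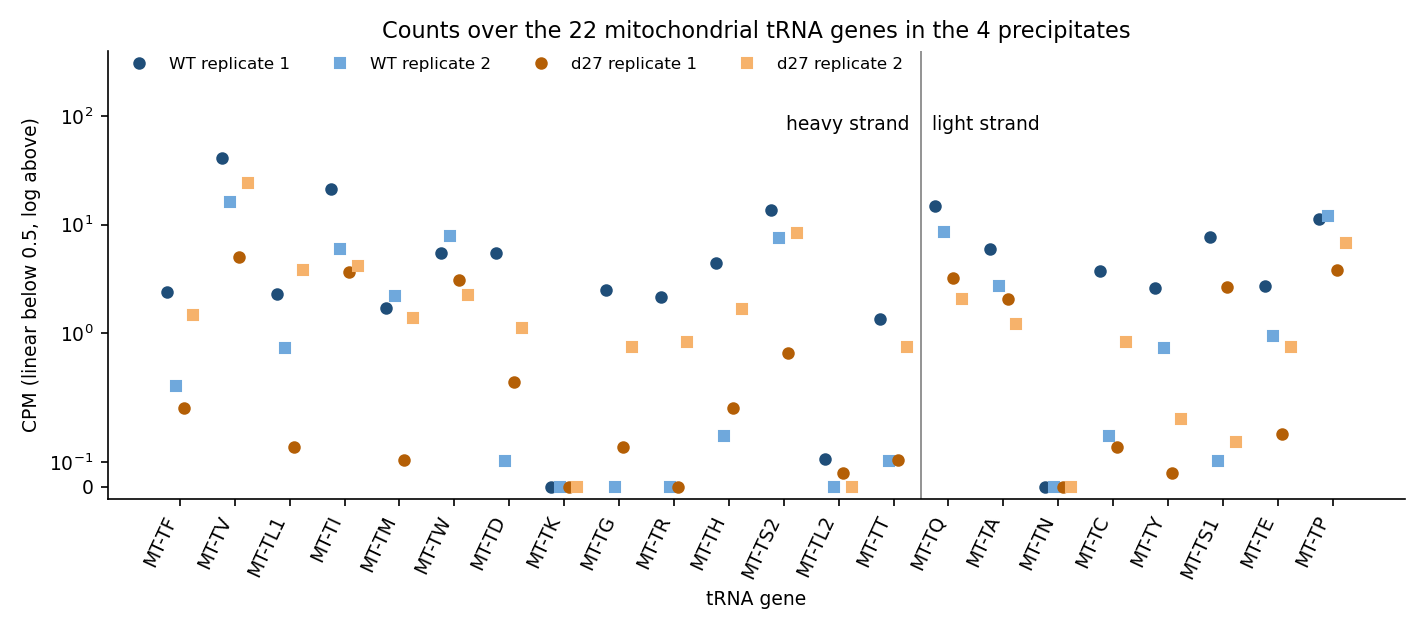
CPM of the 22 mitochondrial tRNA genes in the 4 precipitates (axis linear below 0.5 and log above), with heavy-strand genes left of the line and light-strand genes right of it, each in genome order. MT-TV is the highest gene in every library, MT-TQ shows both d27 points under both WT points, and MT-TK and MT-TN lie at 0 throughout.

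Of 48 nuclear genes for mitochondrial transcription, RNA processing, RNA decay, DNA replication and translation, 46 were tested: 3 rose, 1 fell and 42 did not pass, with a median log2 fold change of -0.17. Over all genes tested 8.00% rose and 3.70% fell. POLRMT, the mitochondrial RNA polymerase, fell, at 67.9 and 88.7 CPM in WT and 25.8 and 29.7 CPM in d27 (log2 -1.50 ± 0.27, edgeR adjusted p = 0.0180), and was called in all 12 alternatives run for it. TFAM, which packages mitochondrial DNA and opens its promoters, rose, at 35.4 and 25.9 CPM in WT and 87.9 and 72.9 CPM in d27 (log2 1.39 ± 0.27, edgeR adjusted p = 0.0227). MTRF1L, a mitochondrial release factor (1.46 ± 0.32), and FASTK, the founding member of a family of mitochondrial RNA-binding proteins (1.25 ± 0.33), also rose. The TFAM, MTRF1L and FASTK calls were lost without d27 replicate 1, MTRF1L also with library totals and FASTK also without d27 replicate 2.

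Nuclear subunits of the same complexes had medians nearer 0 than the mitochondrially encoded ones. Of 74 listed, 73 were tested: 7 fell, 1 rose and 65 did not pass, with a median log2 fold change of -0.55 against -1.40 for the 13 mitochondrial mRNAs, and this difference was not tested. The shares over all genes tested were 3.70% lower and 8.00% higher. By complex the nuclear median was -0.66 over 36 genes of complex I, -0.03 over 9 of complex III, -0.90 over 11 of complex IV and -0.32 over 17 of complex V. The mitochondrially encoded mRNAs had medians of -1.45 (7 genes), -1.31 (1 gene), -1.44 (3 genes) and -1.14 (2 genes) for the same complexes. NDUFA5 of complex I rose (1.55 ± 0.27, edgeR adjusted p = 0.0174), and the called drops with the lowest p were UQCRH of complex III (-1.34 ± 0.28), COX5B of complex IV (-1.46 ± 0.34) and NDUFB4 of complex I (-1.66 ± 0.39). All 8 of these calls were lost without d27 replicate 1. Over all genes tested, calls lower in d27 also became far fewer in that alternative.

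Nuclear pseudogenes copied from mitochondrial DNA can share reads with the members, since a read that aligns to several places is left out of both. The 417 listed copies held 997 and 991 counts in WT and 522 and 971 in d27, or 0.459% to 0.803% of the mitochondrial counts of the same library. Of the 7 tested, 0 passed in edgeR and 2 had an unadjusted p under 0.05, as did 30.7% of all genes tested. DESeq2 called 1 of the 7, and 2859 of all 14909 genes. The most abundant, MTATP6P1, a copy of MT-ATP6, was at 50.3 and 60.3 CPM in WT and 15.9 and 32.5 CPM in d27 (log2 -1.20 ± 0.37, edgeR adjusted p = 0.0722), next to -1.23 ± 0.34 for MT-ATP6 itself. Reads aligned to several places made up 23.7% and 22.8% of all entries in WT and 9.10% and 17.1% in d27, so the groups differ in how many reads were left out, and the part of this in the mitochondrial counts was not tested.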

How the data were processed

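The authors deposited raw counts of reads for each gene, in a table per library, made with HTSeq on GRCh38 per the submitters' processing notes, which also name DESeq2. What aligner, annotation release, strand setting and versions they used is not given in the sources used here. Of 726 genes lying inside exons of an opposite-strand gene, 17.8% had at least 10 counts over the 4 libraries, against 1.02% of 1080 inside exons of a same-strand gene (1 of which held 91216 of that set's 93192 counts). Counting blind to strand would treat both sets alike. A table of gene names gave symbols for 60463 of 60719 identifiers, and GENCODE release 29 (GRCh38) gave positions and sequences of all 37 members.

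Summary entries stayed out of library sizes and tests. Differences were tested with edgeR 4.0.16 (R 4.3.3): TMM, filterByExpr by group (minimum count 10, minimum total 15), glmQLFit (robust) and glmQLFTest on group alone, over 14909 genes. Standard errors (SE) were derived from the fold change and the F statistic. Ratios within libraries were compared by exact permutation (SciPy 1.17.1). On simulated data the fit recovered 25% of 2-fold changes and 83% of 4-fold changes, and called 1 unchanged gene. A gene that did not pass is therefore not shown to be unchanged. In the simulation no gene of low CPM was changed, and every gene had the spread typical of its level. The recovery rates need not hold for scarce tRNAs or for genes with a wider spread. Reads carry no molecular identifiers, so intervals and floors cover counting error only.

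The members and lists were chosen with earlier results of these data known. All 13 mRNAs, both rRNAs and each tested tRNA are named, and of the other lists up to 3 called genes per direction by lowest p, or the most abundant member where none was called. The alternatives were the DESeq2 1.42.0 Wald test, edgeR with DESeq2's size factors or with library totals, TMM without mitochondrial genes, other filters (at least 1 count, or 50 counts in 2 libraries), no robust fit, a replicate block and leaving out each library; all HTSeq entries as library size was added after seeing the data. Leaving out a library leaves a lone sample that is assumed to vary like the other group.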

Additional observations from a re-analysis of the deposited data

How the results depend on the processing

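MT-ND6 was called in all 13 alternatives and every mRNA kept a fold change under 0 in all of them, while the number of mRNAs called lower (9) was 12 with DESeq2, 13 without the filter, 10 with a replicate block, 8 to 10 with the other scalings of gene counts, the stricter filter and the other spread estimate, and 1 to 12 when 1 library was left out, lowest without d27 replicate 1. With all HTSeq entries as library size, which moved the median of all genes tested to 0.42 on the log2 scale, 2 mRNAs were called and their median was -1.002; that median ran from -1.74 to -1.06 when 1 library was left out. Over all genes, 1743 calls became 2859 with DESeq2, 2862 without the filter and 768 to 4851 without 1 library. The rRNAs (0 called) had 2 calls without the filter and 0 to 2 without 1 library, and the tRNAs (1) had 2 with DESeq2, 2 without the filter and 0 to 3 without 1 library. The machinery list (4) had 1 to 8 calls without 1 library. The nuclear subunits (8) had 20 with DESeq2, 3 with library totals, 17 with at least 50 counts in 2 libraries and 1 to 21 without 1 library. The nuclear copies (0) had 1 with DESeq2, 1 without the filter, 1 with the stricter filter and 0 to 3 without 1 library.

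Same-numbered libraries deviated together little (r = 0.0962 over 14909 genes, with 2 pairs) and the labels tie them by nothing but a number, so they were not treated as pairs; with a replicate block the calls were 3575 over all genes, 10 for the machinery, 21 for the nuclear subunits and 1 for the nuclear copies, and MT-TL1 turned to -0.47. Leaving out 1 library moved log2 differences from -0.28 to 0.60 for MT-RNR2 to MT-RNR1, from -0.75 to 0.87 for rRNA to mRNA and from -0.39 to 0.62 for tRNA to mRNA, so none of these ratios has a stable sign. It also turned the sign for scarce tRNAs, with log2 fold changes from -2.04 to 1.10 for MT-TF, -3.09 to 1.43 for MT-TL1, -4.29 to 3.75 for MT-TS1, -2.83 to 2.79 for MT-TD and -2.76 to 2.21 for MT-TH. The MT-ND6 to heavy-strand mRNA difference kept its sign in every alternative run (-0.81 to -0.38), as did the mitochondrial share (-1.86 to -0.71). The cause of these changes was not tested.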
